A study of Mus musculus with 6 samples.

Results

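The regions described here are promoter sites at which FOXC2 was called in podocytes of PBS-treated mice and not in podocytes injured with adriamycin (ADR). They are 2379 peaks of the 41075 in the PBS list. Each was chosen by measured values: it shares no base with any peak of the ADR list, and its summit, the point of highest signal, lies from 1 kb upstream to 100 bp downstream of an annotated transcript start (GENCODE M21, mouse genome GRCm38). These PBS-only promoter peaks are 18.2% of the 13082 PBS promoter peaks, whereas 33.1% of all PBS peaks had no ADR peak over them. In the opposite direction, 10.5% of the 11837 ADR promoter peaks, or 1245 peaks, were ADR-only, against 32.3% of all 40067 ADR peaks. Since the absence of an ADR peak chose the regions, neither that absence nor their number is a finding.

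FOXC2 binding was measured by ChIP-seq in podocytes, the epithelial cells that wrap the glomerular capillaries, from mice that carry the mT/mG reporter. In these mice a podocyte-specific promoter drives Cre, which switches the reporter to a green membrane protein so that FACS can collect the cells. They were of mixed genetic background, and ADR or PBS was given to littermates. ADR, an anthracycline that damages podocytes, was injected at 18 mg/kg on day 0 and again on day 7, with PBS in its place in the controls, and the cells were sorted on day 9. ADR podocytes and PBS podocytes had 3 samples each, with an antibody labelled Abcam b5060 and 50-bp single-end reads, and the authors pooled the samples of a condition into 1 peak list. A pooled list carries no replicate error, so the conditions could not be tested against each other from these lists, and all intervals below are 95% intervals that cover counting error over peaks only. Neighboring peaks and peaks at the same gene are not independent of each other. How deeply each list was sequenced is unknown, so a missing ADR call is not an absence of FOXC2.

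FOXC2 is a forkhead factor, a family that recognizes DNA with a winged-helix domain. It is needed for podocyte differentiation. Promoters of mammalian genes fall broadly into CpG-rich ones, which are often active in many cell types, and CpG-poor ones, which are more often tissue-restricted. Among the factors that bind near starts, AP-1 dimers of FOS and JUN respond to growth factors and stress, CREB and ATF proteins bind the cAMP response element (CRE), and CTCF organizes chromatin loops. A motif below counts as present where its exact string stands on one of the strands no farther than 100 bp from the summit.

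The windows that follow run from 100 bp before to 100 bp after the summit of 6 strong PBS-only promoter peaks with the AP-1 string TGACTCA, which reads TGAGTCA on the other strand. They are shown because AP-1 is the motif by which these peaks exceed the other promoter sets by the most points. Each is written 5′ to 3′ on the strand of the gene, from the GRCm38 RefSeq sequence, with the AP-1 match in capitals. The windows lie at chr7:120670686-120670886 (minus strand, *Pdzd9*), chr9:115067247-115067447 (plus, *Osbpl10*), chr11:117231710-117231910 (plus, *Sept9*), chr19:5743667-5743867 (plus, *Ltbp3*), chr14:20765725-20765925 (minus, *Camk2g*) and chr13:95696745-95696945 (plus, *F2rl2*).
Pdzd9: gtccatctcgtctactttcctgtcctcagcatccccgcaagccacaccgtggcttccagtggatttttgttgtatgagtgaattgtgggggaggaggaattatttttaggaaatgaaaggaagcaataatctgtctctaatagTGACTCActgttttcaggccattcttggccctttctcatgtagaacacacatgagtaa
Osbpl10: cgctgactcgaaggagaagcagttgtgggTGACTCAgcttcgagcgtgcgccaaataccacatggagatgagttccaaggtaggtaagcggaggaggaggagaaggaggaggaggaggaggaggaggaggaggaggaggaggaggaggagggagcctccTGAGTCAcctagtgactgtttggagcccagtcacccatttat
Sept9: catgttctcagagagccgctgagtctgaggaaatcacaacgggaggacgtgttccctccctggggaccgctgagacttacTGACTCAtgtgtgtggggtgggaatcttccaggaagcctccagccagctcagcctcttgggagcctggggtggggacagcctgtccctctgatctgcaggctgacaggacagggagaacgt
Ltbp3: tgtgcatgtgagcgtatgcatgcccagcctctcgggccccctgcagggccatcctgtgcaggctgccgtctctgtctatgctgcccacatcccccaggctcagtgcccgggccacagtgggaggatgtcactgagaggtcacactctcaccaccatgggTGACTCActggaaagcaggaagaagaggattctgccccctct
Camk2g: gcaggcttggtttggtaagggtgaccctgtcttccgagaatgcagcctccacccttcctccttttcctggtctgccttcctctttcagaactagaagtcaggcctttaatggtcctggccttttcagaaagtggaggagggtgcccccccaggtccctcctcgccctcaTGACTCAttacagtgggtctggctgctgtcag
F2rl2: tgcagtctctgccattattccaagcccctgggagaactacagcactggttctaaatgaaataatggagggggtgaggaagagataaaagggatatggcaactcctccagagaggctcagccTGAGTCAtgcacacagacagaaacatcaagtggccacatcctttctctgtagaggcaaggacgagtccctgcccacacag
*Osbpl10* has a match on each side of a purine-rich repeat, with their middles 68 bp before and 62 bp after the summit. In *Sept9* the match lies 17 bp before the summit and in *F2rl2* 24 bp after it. By annotation, the summits at *Osbpl10*, *Sept9*, *Ltbp3* and *Camk2g* lie in introns, near starts of shorter transcripts. The summit at *Pdzd9* lies at -443 bp from the start, outside the gene and within the overlapping 4930588G17Rik. That at *F2rl2* lies at -8 bp, outside the gene and within *Iqgap2*, one of the podocyte genes listed by the study.

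Other motifs stood at the summits of further PBS-only promoter peaks. Capitals mark the CRE string TGACGTCA in *Eya4* (chr10:23185582-23185782, minus) and *Mcm5* (chr8:75109240-75109440, plus), the forkhead string ATAAACA in *Sorbs2* (chr8:45658718-45658918, plus), AP-1 and CTCF matches in *C1qbp* (chr11:70983007-70983207, minus) and a CTCF match in *Muc1* (chr3:89228185-89228385, plus). They are shown as the strongest peaks at coding genes with these motifs, except *Muc1*, whose fold ties with those of *Fbp2* and *Myo1h*.
Eya4: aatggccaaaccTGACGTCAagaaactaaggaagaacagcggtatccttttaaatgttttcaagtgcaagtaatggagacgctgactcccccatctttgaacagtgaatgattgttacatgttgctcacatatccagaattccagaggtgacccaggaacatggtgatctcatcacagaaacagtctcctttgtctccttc
Mcm5: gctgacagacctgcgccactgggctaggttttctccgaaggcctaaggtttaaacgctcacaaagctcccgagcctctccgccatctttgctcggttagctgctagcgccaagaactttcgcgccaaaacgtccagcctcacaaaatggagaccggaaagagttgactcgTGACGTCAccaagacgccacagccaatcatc
Sorbs2: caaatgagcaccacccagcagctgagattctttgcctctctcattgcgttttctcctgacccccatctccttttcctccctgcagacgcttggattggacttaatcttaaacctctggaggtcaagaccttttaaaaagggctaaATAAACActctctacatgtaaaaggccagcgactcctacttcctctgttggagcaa
C1qbp: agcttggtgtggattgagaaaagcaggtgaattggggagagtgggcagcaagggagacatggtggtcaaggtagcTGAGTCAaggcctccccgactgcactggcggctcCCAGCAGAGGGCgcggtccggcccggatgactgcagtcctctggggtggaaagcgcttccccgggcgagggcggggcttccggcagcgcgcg
Muc1: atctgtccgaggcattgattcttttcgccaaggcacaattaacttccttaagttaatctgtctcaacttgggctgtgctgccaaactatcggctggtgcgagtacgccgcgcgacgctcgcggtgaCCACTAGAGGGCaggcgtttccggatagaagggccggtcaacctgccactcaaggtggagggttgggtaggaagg
In *C1qbp* the AP-1 and CTCF matches lie 22 bp before and 14 bp after the summit. Only 2 PBS-only promoter peaks hold both. The summits at *Mcm5*, *C1qbp* and *Muc1* lie upstream of their genes, that of *Eya4* in an intron and that of *Sorbs2* in a noncoding part of an exon.

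Most PBS-only promoter peaks were weak. The fold, the authors' enrichment of signal at the summit over the local control of the same list, ran between 2.49 and 22.8 with a median of 4.98 (quartiles 4.20 and 5.87), and 58 peaks (2.44%) reached a fold of 10. The median was 8.27 in promoter peaks that an ADR peak overlaps (shared promoter peaks), 5.10 in ADR-only promoter peaks and 5.04 in PBS-only peaks outside promoters. These folds describe the regions, and no difference between the sets was read from them. The −log10 of the caller's q was at least 5 in 1379 of them (58.0%), with a median of 5.76, and the median width was 244 bp, against 465 bp for shared promoter peaks.

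The strongest PBS-only promoter peaks at coding genes, to which the ranking here is limited, stood at genes of diverse function. The highest fold, 22.8, lay 76 bp upstream of a transcript start inside an intron of *Eya4*, which encodes a transcriptional coactivator and phosphatase of the eyes absent family. It was followed by *Pdzd9* (22.5), a PDZ-domain protein gene, and *Osbpl10* (19.98), an oxysterol-binding protein relative. *Syt12* (18.7), a synaptotagmin, and *Sh3bp5* (18.4), an exchange factor for RAB11, came next. Matrix genes were among the 25 strongest at coding genes: *Col12a1* (16.6) encodes a fibril-associated collagen, *Ltbp3* (16.3) a latent TGF-β-binding protein, *Nid1* (11.9) the basement membrane protein nidogen-1 and *Tnc* (11.9) tenascin-C. So were genes of the actin cytoskeleton and of septins, *Sept9* (16.9), the capping protein gene *Capg* (14.0) and *Tagln2* (12.4), which encodes transgelin-2.

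Of these 25 peaks, 13 belonged to genes with no ADR summit in any of their promoter windows, and 11 lay over 10 kb from the nearest ADR peak. Of all PBS-only promoter peaks at coding genes, 57.02% had no ADR peak at a promoter of the gene, and 42.2% of all PBS-only promoter peaks lay at least 10 kb away, so these counts are near those of the whole set. *Tnc* was farthest, 293517 bp away, and *Osbpl10* had a further PBS promoter peak (6.78) that an ADR peak with its summit outside the window overlapped. The other 12 genes had an ADR peak at another site in a promoter. At *Capg* that site had a fold of 25.7 in ADR podocytes and 22.9 in PBS podocytes, above the PBS-only peak of the same gene. At *Camk2g*, which encodes a calcium/calmodulin-dependent kinase subunit, the PBS-only peak (15.3) was accompanied by an ADR promoter peak with a fold of 9.40. At *Kctd10* (13.5) the ADR promoter peak had a fold of 3.55. Neither gene had a shared PBS promoter peak. AP-1 matches were found in 7 of the 25, WT1 strings in 9, KLF strings in 7 and a forkhead string in 0. Over all PBS-only promoter peaks the shares were 8.91%, 21.4%, 22.6% and 3.53%, in this order. The KLF count and the forkhead count of 0 are near these shares.

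**Figure D1:**
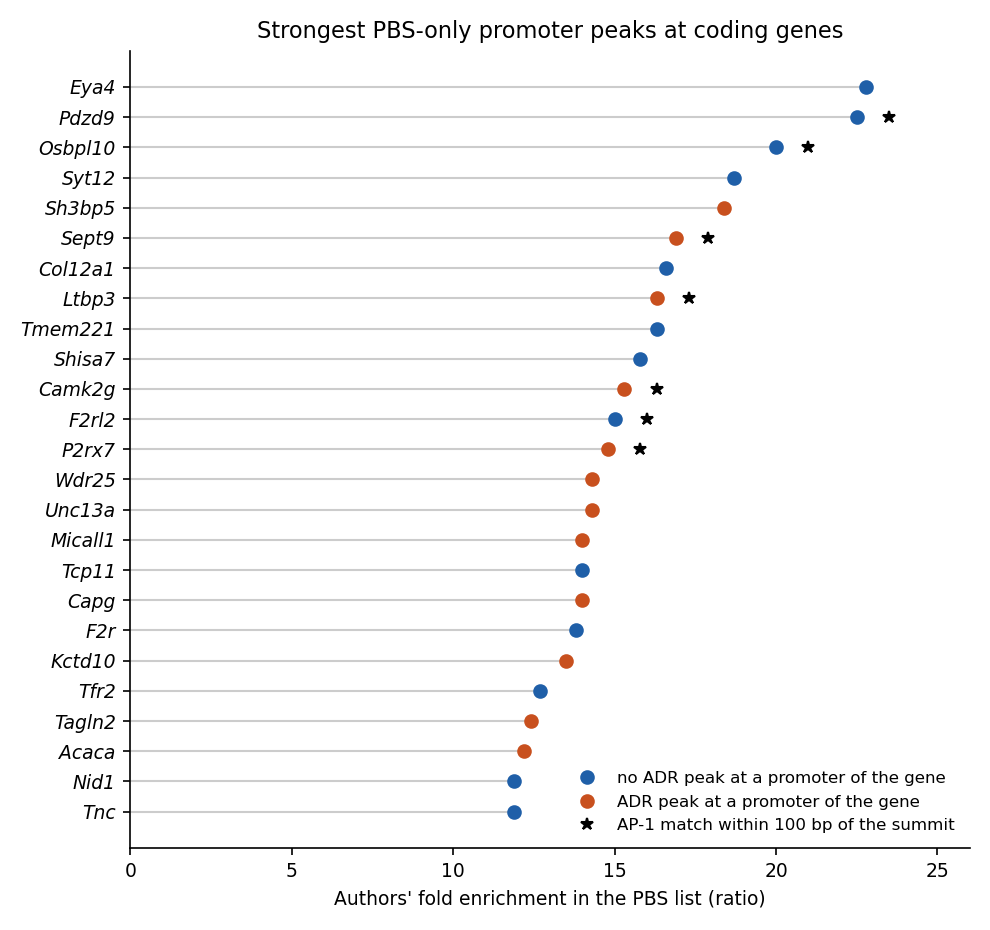
The 25 PBS-only promoter peaks with the highest fold at coding genes, with the authors' fold in the PBS list (x axis, a ratio). Blue points are genes with no ADR peak at any promoter (13) and orange points genes with one at another site (12), stars mark the 7 peaks with an AP-1 match, and folds run between 11.9 (*Tnc*) and 22.8 (*Eya4*).

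Genes of protease-activated receptors were among the sites, of which *F2rl2* and *F2r* are in the ranking of 25. *F2r*, *F2rl1* and *F2rl2* encode the receptors PAR1, PAR2 and PAR3, which thrombin, trypsin-like proteases or both activate by cleavage, and lie next to each other on chromosome 13. Each had 1 PBS-only promoter peak, with folds of 15.04 at *F2rl2*, 13.8 at *F2r* and 8.07 at *F2rl1*, and none had an ADR promoter peak. Within 10 kb of the first start of *F2rl1* and of *F2rl2* the ADR list held 0 peaks. Around *F2r* it held 3, with folds up to 11.8, and the nearest lay 810 bp from the PBS-only peak. For the PBS-only peaks of *F2rl1* and *F2rl2* the nearest ADR peak was 9953 and 48301 bp away. *F2rl3*, the fourth receptor gene, is on chromosome 8 and had 0 peaks within 10 kb in either list. *F2r* and *F2rl2* are named as members of the 25 and *F2rl1* for its TEAD match. They were set side by side after their values were seen.

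PBS-only promoter peaks sat less tightly on the start than shared ones. The median summit was 104 bp upstream of the nearest start (quartiles at −410 and −12 bp), against 57 bp for shared promoter peaks. A summit within 200 bp of the start was found for 61.4%, against 77.8% of shared peaks (difference −16.4 points, −18.5 to −14.3), and one over 500 bp upstream for 20.2%, against 8.72% (11.5 points, 9.76 to 13.2). ADR-only promoter peaks were close to them, with 59.5% within 200 bp (difference 1.89 points, −1.46 to 5.25) and 23.5% over 500 bp upstream (−3.36 points, −6.21 to −0.502). The peaks stood at the first start of the gene record in 53.3%, against 58.0% of shared peaks, the others at internal or alternative starts. Windows with starts on both strands held 8.53% of them and 16.6% of shared peaks.

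**Figure D2:**
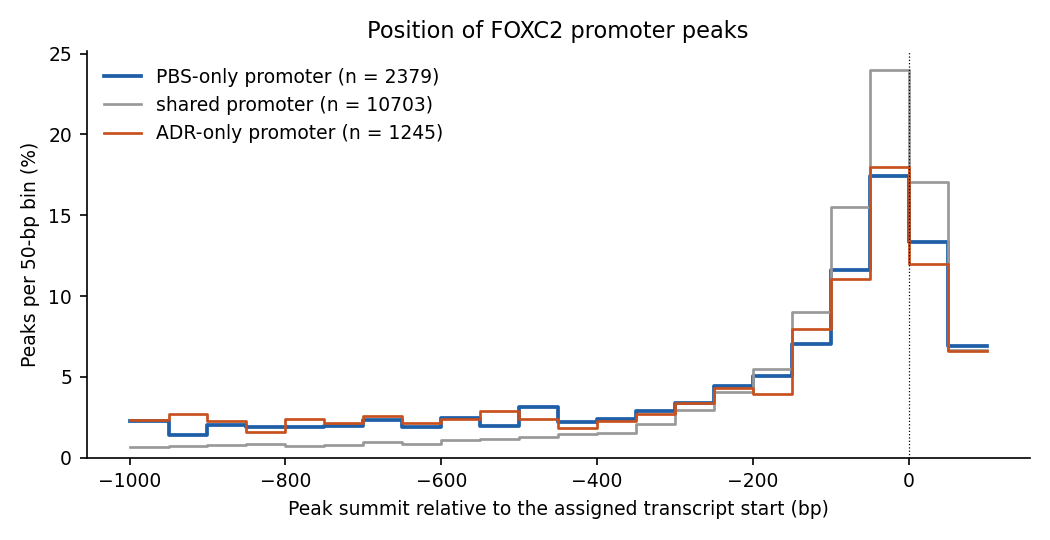
Share of peaks (y axis, %) in 50-bp bins of summit position relative to the assigned transcript start (x axis, bp, negative upstream) for PBS-only, shared and ADR-only promoter peaks. Shared peaks are the most concentrated at the start (77.8% within 200 bp), and the other sets, with 61.4% and 59.5%, extend farther upstream.

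CpG-rich promoters were rarer among the PBS-only peaks. Sequence reaching 250 bp to either side of the summit was called CpG-rich where its GC content was above 50% and its observed over expected CpG above 0.6, which held for 39.3% of them, against 73.7% of shared promoter peaks (difference −34.4 points, −36.6 to −32.3). ADR-only promoter peaks had 38.1% (1.19 points, −2.15 to 4.52), and PBS-only peaks outside promoters 4.92%. Mean GC content within 100 bp of the summit was 59.0% ± 8.47 (SD over 2379 peaks), which was 4.89 points below that of shared peaks (63.9%; −5.26 to −4.52 points) and 6.93 above that of PBS-only peaks outside promoters (52.0%). The difference from ADR-only promoter peaks (58.1%) was 0.826 points (0.161 to 1.49), and its sign changed when only protein-coding transcripts defined promoters (−0.844). The summit lay in an annotated repeat in 7.61% of PBS-only and 7.77% of shared promoter peaks.

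AP-1 matches were more frequent in PBS-only promoter peaks than in any other promoter set. They were found in 212 peaks, or 8.91% (7.83 to 10.1), against 2.79% of shared and 1.69% of ADR-only promoter peaks. The differences were 6.12 points (4.93 to 7.30) and 7.22 points (5.87 to 8.57), and 4.91 and 7.33 points when the comparison peaks were weighted to the same GC content. Windows of the same length 1 kb to either side held AP-1 in 3.19%, 3.17% and 2.77%, in the order PBS-only, shared and ADR-only. Of all 93513 transcript starts of coding genes, 3.13% have the string in the 200 bp upstream. PBS-only peaks outside promoters had a still higher share, 18.9% (95% interval of the difference −11.4 to −8.65 points).

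The matches clustered at the summit. In 40-bp bins from 80 bp before to 80 bp after it, 1.77 to 2.23% of PBS-only promoter peaks had a match, against 0.551 to 0.738% of shared peaks, while bins over 240 bp from the summit held 0.378 to 0.631% of the PBS-only peaks. The position of the matches was not used to choose the regions.

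**Figure D3:**
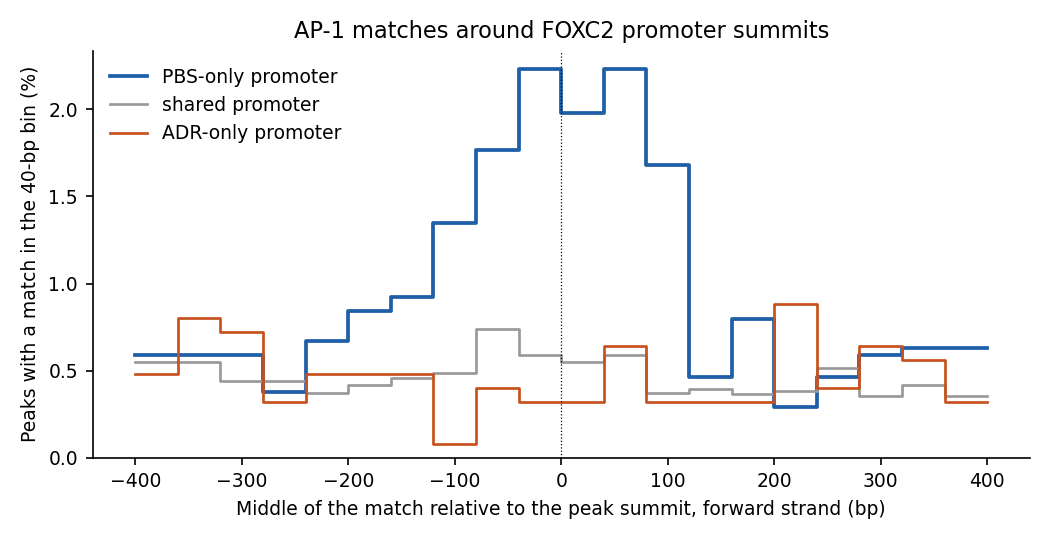
Share of peaks (y axis, %) with the middle of an AP-1 match in each 40-bp bin around the summit (x axis, bp, on the forward strand of the genome) for PBS-only, shared and ADR-only promoter peaks. PBS-only peaks reach 2.23% beside the summit, and shared peaks stay at or under 0.738%.

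AP-1 was unevenly spread among the PBS-only promoter peaks. It was found in 191 of the 1445 that were not CpG-rich (13.2%, 11.6 to 15.1) and in 21 of the 934 that were (2.25%, 1.48 to 3.41). Shared promoter peaks had 5.75% and 1.74% in these classes, so in CpG-rich promoters the intervals of the PBS-only and shared sets overlap (shared 1.47 to 2.05). The share was 14.4% where the summit lay over 500 bp upstream and 6.13% within 50 bp of the start, against 5.25% and 1.92% in shared peaks. It also differed with the fold: 5.62% in the lowest of 4 groups by fold, 15.1% in the highest, and 36.2% (25.1 to 49.1) in the 58 peaks with a fold of at least 10. In shared promoter peaks of that fold it was 3.48% (2.96 to 4.10), and in the 98 ADR-only promoter peaks of that fold 3.06% (1.05 to 8.62). These patterns were not confined to promoters. PBS-only peaks outside promoters had AP-1 in 14.6% (13.7 to 15.6) at a fold under 5. At a fold of at least 10 they had it in 239 of 563 (42.5%, 38.4 to 46.6). Among them, AP-1 stood in 19.7% of those not CpG-rich and in 3.44% of CpG-rich ones.

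**Figure D4:**
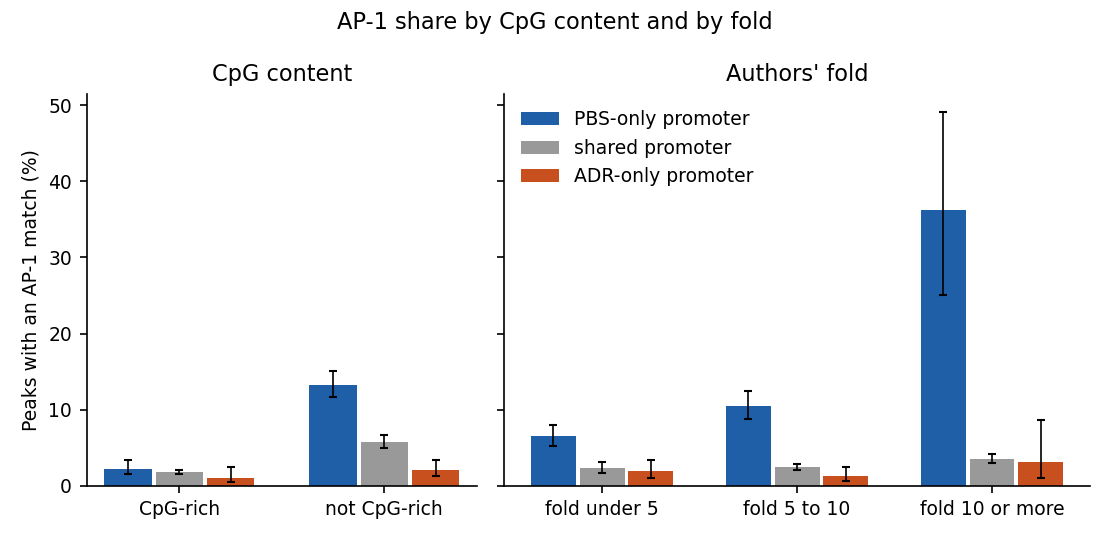
Share of peaks with an AP-1 match (y axis, %, bars with 95% Wilson intervals) by CpG content and by the authors' fold, for PBS-only, shared and ADR-only promoter peaks. The bars of the PBS-only set reach 13.2% outside CpG-rich promoters and 36.2% at a fold of 10 or more, where shared peaks have 5.75% and 3.48%.

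Forkhead strings, the family motif of FOXC2 (GTAAACA or ATAAACA), were few. They were found in 3.53% of PBS-only promoter peaks (2.86 to 4.35), in 3.23% of shared and in 8.11% of ADR-only promoter peaks. The difference from shared peaks was 0.298 points (−0.516 to 1.11) and became −1.80 (−2.76 to −0.843) at equal GC content. That from ADR-only peaks was −4.58 points (−6.27 to −2.89), and −1.40 (−3.05 to 0.254) with promoters of protein-coding transcripts only. Flanking windows of the PBS-only peaks, with their lower GC content (49.2%), held the string in 6.62%. The highest fold with a forkhead match at a coding gene was 9.88, at *Sorbs2*, which encodes an actin-associated adaptor.

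KLF, WT1, ETS, NF-Y and 4 further motifs were less frequent in PBS-only than in shared promoter peaks. Over 18 motifs and 3 comparison sets, 54 differences were computed, and intervals widened for that number are meant by "past the widened interval". Against shared promoter peaks 11 of 18 motifs passed it. AP-1, CTCF and the TATA string TATAAA were higher, and 8 were lower: KLF (GGGCGGGG, GGGCGTGG, GGGTGGGG or GGGTGTGG), WT1 (GNGGGGGAG, GNGGGGGCG, GNGTGGGAG or GNGTGGGCG), ETS (CCGGAAG), NF-Y (CCAAT with A or G before it and C or G after it), CRE, NRF1 (GCGCATGCG), YY1 (AAGATGGCG) and the E-box CACGTG. KLF was found in 22.6%, against 34.9% of shared peaks, WT1 in 21.4%, against 31.7%, ETS in 7.31%, against 13.0%, and NF-Y in 9.63%, against 14.7%. KLF and WT1 strings are both runs of G and can overlap, and 150 PBS-only promoter peaks held both. At equal GC content the KLF difference shrank to −4.91 points and that of TATA to 0.378 (−0.552 to 1.31). KLF stands in 26.1% and ETS in 8.08% of the 200 bp upstream of all coding transcript starts, WT1 in 15.1% and NF-Y in 13.2%.

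Against ADR-only promoter peaks only 4 of 18 motifs passed the widened interval. AP-1 and CTCF were higher, and forkhead and LMX1B (TTAATTA or TAATTAA, bound by LIM homeodomain proteins) were lower. CTCF was found in 2.19% of PBS-only promoter peaks, 0.562% of ADR-only ones and 0.738% of shared ones, with flanks of 0.210% in the PBS-only set and 0.387% upstream of all coding starts. PBS-only peaks outside promoters had a like share, 2.50% (difference −0.310 points, −0.965 to 0.344). CTCF was absent from the 58 PBS-only promoter peaks with a fold of at least 10, which allows a share of up to 5.17%. LMX1B was found in 0.799%, against 3.37% of ADR-only peaks (−2.57 points, −3.64 to −1.51). TEAD strings (ACATTCCA, ACATTCCT, GCATTCCA or GCATTCCT) reached 3.70%, against 5.46% (−1.76 points, −3.24 to −0.290), which did not pass the widened interval. CRE stood in 1.35%, against 0.964% of ADR-only and 2.57% of shared peaks. The MAF string TGCTGAC, which can run on into an AP-1 string, stood in 4.20%, the E-box CAGCTG, read by TCF21 and other bHLH factors, in 13.7%, SRF sites in 0.841% and NF-kB sites in 4.08%. Against PBS-only peaks outside promoters 10 of 18 passed: KLF, ETS, NRF1, NF-Y, YY1 and CACGTG were higher in the promoter peaks, and AP-1, forkhead, TEAD and TATA lower. At equal GC content the TATA difference changed sign to 1.19 points (0.367 to 2.01) and the forkhead difference became −0.608 (−1.45 to 0.235), while the other 8 kept their direction with intervals that exclude 0. None of the 18 motifs was found in 666 PBS-only promoter peaks (28.0%).

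**Figure D5:**
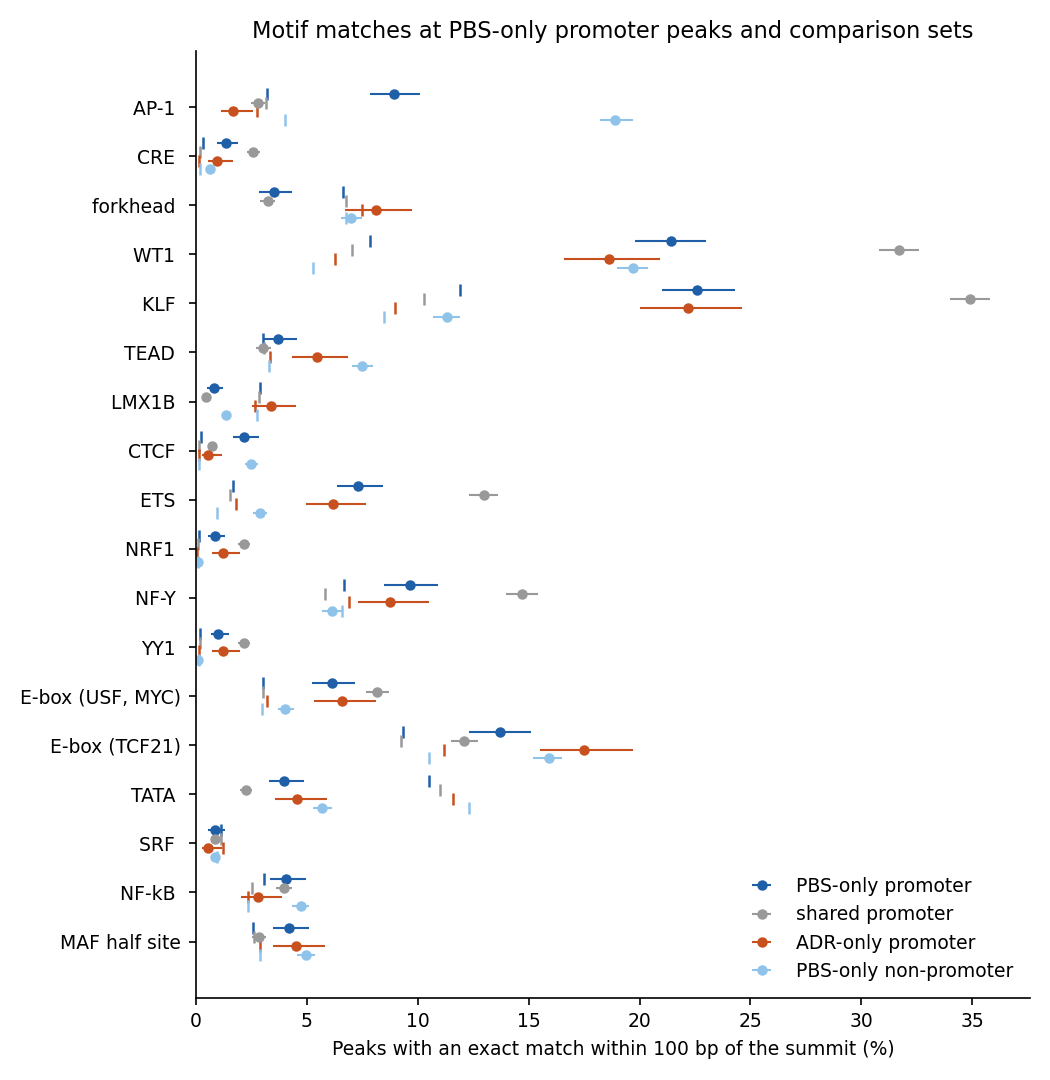
Share of peaks (x axis, %) with an exact match to each of 18 motifs within 100 bp of the summit, with 95% Wilson intervals, for PBS-only promoter peaks and, below them in each row, shared promoter, ADR-only promoter and PBS-only non-promoter peaks. Vertical ticks give the share of flanking windows, and AP-1 stands at 8.91% in PBS-only promoter peaks, against 2.79% in shared and 1.69% in ADR-only ones.

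The distance from a PBS-only promoter peak to ADR peaks varied widely. The distance to the nearest ADR peak had a median of 5804 bp (quartiles 596 and 26808 bp), and was under 1 kb for 719 peaks (30.2%) and at least 10 kb for 1003 (42.2%). An ADR peak at a promoter of the same gene was present for 909 (38.2%, 36.3 to 40.2), counted by the summit. A shared PBS peak stood at such a promoter for 851 and an ADR-only peak for 136. For 1470 (61.8%) no promoter of the gene had an ADR peak. The share with one depended on the peaks used, and was 15.4% when only the 20000 peaks with the smallest q of each list were compared and 57.2% when peaks counted as shared only with an overlap of at least 50% of both. Over the 18 motifs, the share with an ADR peak at the gene ran from 16.7% (YY1, 24 peaks) to 54.6% (NF-kB). Forkhead (50.0%) and LMX1B (47.4%, 19 peaks) were also above AP-1 (45.8%). The share was 22.4% for peaks with an ETS match, 21.2% with a CTCF match and 25.8% with an NF-Y match.

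At the limits of the rule, the median folds on either side were close. The 8 peaks that touched an ADR peak or lay within 10 bp of one had a median of 4.51. For the 8 promoter peaks that shared 1 to 10 bp with an ADR peak it was 4.32. *Adh5* (5.94) and *Map4k2* (5.69) touched an ADR peak without sharing a base and were included, while promoter peaks at *Rab34* (4.72) and *Bcar3* (4.44) shared 4 bp and were not. The 54 peaks with a summit in the outermost 50 bp of the upstream window had a median fold of 4.72, and the 43 in the next 50 bp beyond it, 4.65.

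PBS-only promoter peaks were assigned to coding genes in 80.3% (1910 peaks), to long intergenic noncoding RNAs in 141 and to antisense transcripts in 99. They reached 1868 of 21951 coding genes (8.51%), and 10393 coding genes had any PBS promoter peak. Of the 1868, 1068 had no ADR promoter peak, and 111 also had an ADR-only promoter peak. Several peaks stood at 169 genes. *Adgrg1*, an adhesion G protein-coupled receptor gene, *Esam*, an endothelial adhesion molecule gene, and *Fblim1*, which encodes a filamin-binding LIM protein, had 4 each and were picked for this number after it was seen. The folds were 8.85, 7.56, 5.87 and 3.48 at *Esam*, 5.75, 4.98, 4.92 and 4.46 at *Fblim1* and 6.01, 5.23, 4.72 and 3.57 at *Adgrg1*. No promoter of *Esam* or *Fblim1* had an ADR peak, whereas *Adgrg1* had one.

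Gene lists are set beside 2 backgrounds: 8.51% of all coding genes had a PBS-only promoter peak, as did 17.97% of the coding genes with any PBS promoter peak. Of the 48 podocyte-characteristic genes used by the study, 5 had a PBS-only promoter peak (10.4%, and 12.8% of the 39 with any PBS promoter peak, which is above the first background and below the second): *Nupr1* (5.69), a stress-induced chromatin protein gene, *Nes* (5.49), which encodes the intermediate filament nestin, *Htra1* (4.46), *Npr3* (3.69) and *Sept11* (3.02). All 5 genes also had an ADR promoter peak. A promoter peak of any kind was present at 43 of the 48 genes in the ADR list and 39 in the PBS list. In the PBS list such a peak stood at 7 of 14 mesangial, 5 of 18 endothelial, 5 of 33 tubule and 0 of 18 immune markers, beside 47.3% of all coding genes. Of 53 glomerular disease and slit diaphragm genes, 8 had a PBS-only promoter peak (15.1%), which is 17.4% of those with any PBS promoter peak and near the background of 17.97%. *Kirrel* (6.53) and *Magi2* (5.49), which encode the slit diaphragm protein NEPH1 and a scaffold beneath it, also had ADR promoter peaks. The ion channel gene *Trpc6* (3.38), *Kank4* (3.48) and the coenzyme Q genes *Coq2* (6.53 and 5.34) and *Coq8b* (2.90) had none. Of 20 podocyte transcription factor genes, *Klf6* (4.98), *Nr2f2* (4.21) and *Pax2* (5.14) had a PBS-only peak, and all also had an ADR promoter peak. They are 18.8% of the 16 with any PBS promoter peak, near the background of 17.97%.

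Of the actin and adhesion genes, 11 of 48 had a PBS-only promoter peak (22.9%). Of the 48, 44 had any PBS promoter peak, and 11 of these 44 compare with 17.97% of all such coding genes. *Tagln2* (12.4), *Zyx* (7.73), *Tln1* (7.04) and *Actg1* (6.27), which encode transgelin-2, the focal adhesion proteins zyxin and talin-1, and γ-actin, had the highest folds, and all 4 also had an ADR promoter peak. *Flna* (5.09) and *Src* (4.46 and 4.20), which encode filamin A and a tyrosine kinase of focal adhesions, had none. YAP and TEAD target genes had 6 of 22 (27.3%, and 33.3% of the 18 with any PBS promoter peak), led by *Amotl2* (6.27), a YAP-binding angiomotin, and *Gadd45b* (6.01), and all 6 also had an ADR promoter peak. No list was tested, and these are counts of few genes.

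Of 30 cell death genes, 4 had a PBS-only promoter peak. That is 15.4% of the 26 with any PBS promoter peak, below the 17.97% of all such coding genes. None of these 4 genes had an ADR promoter peak: *Bak1* (6.53), *Cflar* (5.69), *Bid* (4.72) and *Casp8* (3.48). In this order they encode a pore-forming BCL2 family protein, the caspase-8 inhibitor FLIP, a BH3-only protein that caspase-8 cleaves, and caspase-8. Among 40 cell cycle genes 7 had a PBS-only peak, of 35 with any PBS promoter peak, a share near the 17.97% of all such coding genes. *Mcm5* (10.4), a subunit of the replicative helicase, *Cdk1* (7.68), *Plk1* (5.23) and *Bub1* (4.43), kinases of mitosis, had no ADR promoter peak, and *E2f2* (6.78), *Cdk6* (5.11) and *Cdkn2a* (3.38) had one. *Cdk1*, *Mcm5*, *Plk1* and *Bub1* each had an NF-Y string within 100 bp of the summit, as did *Top2a*, which was seen on reading their values. Of the p53 and DNA damage list, the topoisomerase gene *Top2a* (4.21) and *Tigar* (4.46) had a PBS-only promoter peak and no ADR promoter peak. For comparison, 1089 of all 1910 PBS-only promoter peaks at coding genes (57.02%) had no ADR peak at a promoter of the gene.

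Of 37 AP-1 and immediate early genes, 36 had any PBS promoter peak and 5 had a PBS-only one. That is 13.9% of the 36, below the 17.97% of all such coding genes. The 5 were *Myc* (7.30 and 6.01), *Egr3* (6.01), *Klf6* (4.98), *Klf4* (4.72 at both of its peaks) and *Sgk1* (4.67), with no FOS or JUN gene among them. Both *Klf4* peaks held an AP-1 string, and only *Egr3* had no ADR promoter peak. Of 18 CREB and ATF genes, *Creb5* had peaks of 9.62, with an AP-1 string, and 4.72, with a CRE, over 40 kb from any ADR peak, and *Creb3* shared the peak of *Tln1* (7.04). The remaining lists stood at 4 of 37 for unfolded protein and stress genes, led by *Hsp90aa1* (6.78) and *Gclc* (6.27), 5 of 38 for chromatin regulators, led by *Smarca2* (5.23), and 6 of 76 for cytosolic ribosomal proteins, led by *Rpl26* (7.30). Of the genes with any PBS promoter peak these are 11.1%, 13.9% and 8.33%. For the CREB and ATF list it is 11.8%, and all are below the 17.97% of all such coding genes.

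Endothelial markers had 2 of 18, *Esam* and the TGF-β co-receptor gene *Eng* (4.75), and both had no ADR promoter peak. Of the 18, 5 had any PBS promoter peak. Mesangial markers had 2 of 14, *Des* (6.01) and *Art3* (5.23), and 7 of the 14 had any PBS promoter peak. Both counts are too small to set beside the 17.97% of all such coding genes. Proximal tubule, distal tubule and collecting duct, and immune markers had 0 of 16, 0 of 17 and 0 of 18. In this order only 3, 2 and 0 of them had any PBS promoter peak. Whether other cells in the sort contribute to the peaks at *Esam* and *Eng* was not tested.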

How the data were processed

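FOXC2 ChIP-seq was measured in 6 samples, 3 per condition. Per the study's methods, the authors aligned trimmed reads to GRCm38 and used nf-core/chipseq for narrow peaks, with the replicates pooled by condition. Both deposited lists hold peak positions, a fold enrichment (ratio), a score that is a whole number, and p and q on the −log10 scale. The score and p were not used. Version and threshold of the peak caller are not given in the sources used here, depth is unknown, and peak names show 1 sample's label.

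Peaks, GENCODE M21 starts and GRCm38.p6 sequence were joined in Python 3.11.15 (NumPy 2.4.6; pandas 2.3.3). Plots used matplotlib 3.10.9. All peak ends lie within GRCm38. A peak was assigned to the nearest start whose window held its summit, coding genes first on ties. Shares have 95% Wilson intervals and differences normal intervals, also widened (Bonferroni) over 54 differences. GC weighting used bins of 5 points. The code was checked on simulated data. Named genes are the 25 highest folds at coding genes, the 5 highest with an AP-1, CRE, forkhead, CTCF or TEAD match, up to 4 per gene list, and the peaks nearest to the limits of the rule. Others were chosen after their values were seen. The regions, lists and motifs were chosen with earlier results of these data known. The alternatives tried are in the closing section. Some items are not reported here.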

Additional observations from a re-analysis of the deposited data

How the results depend on the processing

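No paired analysis was possible because each condition is deposited as 1 pooled list, and for the same reason no sample could be left out. Of 102 alternative values, 80 kept their direction and their side of the threshold or moved by less than the limit used. The AP-1 differences kept theirs under all alternatives, at 3.56 to 6.66 points against shared promoter peaks (13 alternatives), 3.91 to 8.30 against ADR-only promoter peaks (13) and −14.9 to −5.64 against PBS-only peaks outside promoters (12). Weighting to equal summit position was added after seeing the data. The GC difference from shared promoter peaks ranged between −5.04 and −2.61 points. The number of PBS-only promoter peaks was 1616 to 3615, and 3615 with an overlap of at least 50% of both peaks.

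The share of PBS-only promoter peaks with an ADR peak at a promoter of the same gene moved most: it was 29.4% with a −log10 q of at least 5, 26.3% with a fold of at least 5, 15.4% with the 20000 smallest q of each list, 57.2% with the 50% overlap, 50.3% with summits within 200 bp, 20.7% with no ADR peak within 1 kb, 49.4% with promoters of 1 kb on each side and 35.5% with protein-coding transcripts only. Thresholds and the 1 kb distance remove ADR peaks or near neighbors by their construction.

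The forkhead difference from shared promoter peaks (0.298 points) changed sign to −0.311 with the q limit, −0.297 with the fold limit, −0.401 with the 20000 smallest q, −0.0597 with summits within 200 bp, −0.0563 with protein-coding transcripts only and −1.80 at equal GC content. That from ADR-only promoter peaks (−4.58) became −1.40, with an interval that holds 0, for protein-coding transcripts only. The GC difference from ADR-only promoter peaks (0.826) changed sign to −0.179 with the 50% overlap, −0.427 with summits within 200 bp and −0.844 with protein-coding transcripts only, and its interval held 0 with the fold limit (0.478), within 50 bp of the summit (0.667) and at equal fold (0.439). The cause of these changes was not tested. Depth cannot be read from the lists and limits which ADR peaks could be called.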
